A study of Homo sapiens with 18 samples.

Results

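Amino acid transporters are described here as 10 genes, SLC7A11, SLC7A5, SLC3A2, SLC7A1, SLC1A4, SLC1A5, SLC38A1, SLC38A2, SLC6A9 and SLC43A1, out of 57736 genes in the count table. They were chosen by gene symbol, with earlier results of these data known, and each symbol matched 1 Ensembl gene. All 10 passed the filter on low counts, as did 17317 genes in total. In A1847 cells, an established line of high-grade serous ovarian cancer, mRNA was sequenced in 3 genotypes with vehicle or tunicamycin, to ask how CARM1 and XBP1 bear on the response to stress of the endoplasmic reticulum (ER). The 6 groups of 3 libraries each were control cells, which the labels call wild type for both genes, cells with XBP1 knocked down and cells with CARM1 knocked out, each given vehicle or 5 μg/ml tunicamycin for 8 h. The knockdown used a lentiviral short hairpin and the knockout a lentiviral CRISPR guide with drug selection. Whether the knockout cells were 1 clone or a pool, and whether the control cells carried a control vector, is not given in the sources used here. Nothing in the labels says that replicates came from separate cultures, so that p-values measure the spread between these libraries, which may be technical.

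Tunicamycin blocks N-linked glycosylation, and unfolded proteins then accumulate in the ER. The ER has 3 sensors of this state. IRE1α splices XBP1 mRNA, whose product drives genes for folding and degradation, and PERK phosphorylates eIF2α, which slows translation in general while translation of ATF4 goes up. The kinase GCN2 acts on eIF2α when amino acids run short, so that the same factor serves both conditions. ATF4 is known to drive amino acid transporters together with enzymes of amino acid synthesis, and CARM1 is an arginine methyltransferase that acts as a coactivator of transcription. The transporters themselves fall into a few kinds. SLC7A11 and SLC7A5 are light chains that are brought to the cell surface by the heavy chain SLC3A2, the first exchanging cystine for glutamate and the second exchanging large neutral amino acids. SLC7A1 carries arginine and lysine. SLC1A4 and SLC1A5 exchange small neutral amino acids and glutamine, SLC38A1 and SLC38A2 take up neutral amino acids with sodium, SLC6A9 takes up glycine, and SLC43A1 lets large neutral amino acids pass by facilitated diffusion.

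The sequence around annotated starts of each gene was searched because ATF4, NFE2L2 and XBP1 bind DNA at known motifs. RefSeq windows of GRCh38.p14, from 250 bases before to 50 after an annotated start, covered 9 of the 10 genes in 16 windows. SLC7A11 had no entry. On both strands, the C/EBP-ATF response element that ATF4 binds with its partners, TGATGNAA, was found in 5 of the 16 windows, against 3.62% of 35116 windows of the same length, and those 5 windows belonged to 5 genes. The antioxidant response element of NFE2L2, TGACNNNGC, was found in 4 of the 16 windows and in 13.3% of all windows. The XBP1 core GACGTG was found in 1 of the 16, a window of SLC38A1, and in 7.81% of all. No match overlapped another in these windows. The windows with the first motif are printed because they share it, with the matching bases in capitals, and that of SLC6A9 because this gene had one of the largest responses and held none of the 3 motifs. In SLC1A4 and SLC3A2 the match lies on the opposite strand, so that the capitals show its reverse complement.
SLC3A2, chr11:62881449-62881748, plus strand: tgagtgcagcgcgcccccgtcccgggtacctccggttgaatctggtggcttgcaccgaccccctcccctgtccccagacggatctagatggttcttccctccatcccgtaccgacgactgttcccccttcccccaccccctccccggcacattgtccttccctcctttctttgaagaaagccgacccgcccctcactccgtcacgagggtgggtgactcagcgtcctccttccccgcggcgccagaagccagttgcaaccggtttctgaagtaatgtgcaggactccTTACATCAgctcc
SLC1A4, chr2:64989149-64989448, plus strand: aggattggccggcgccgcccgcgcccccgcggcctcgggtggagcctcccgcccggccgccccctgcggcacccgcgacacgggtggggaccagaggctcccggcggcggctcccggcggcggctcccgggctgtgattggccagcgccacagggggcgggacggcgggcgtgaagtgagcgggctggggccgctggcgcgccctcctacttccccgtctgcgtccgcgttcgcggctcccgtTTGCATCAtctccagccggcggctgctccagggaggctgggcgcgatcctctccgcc
SLC7A1, chr13:29595639-29595938, minus strand: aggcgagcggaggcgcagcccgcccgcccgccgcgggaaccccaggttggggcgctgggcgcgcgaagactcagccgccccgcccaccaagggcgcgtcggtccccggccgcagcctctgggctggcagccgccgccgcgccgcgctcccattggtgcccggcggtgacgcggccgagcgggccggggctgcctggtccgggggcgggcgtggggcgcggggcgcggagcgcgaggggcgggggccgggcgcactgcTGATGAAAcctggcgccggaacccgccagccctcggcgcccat
SLC38A1, chr12:46266467-46266766, minus strand: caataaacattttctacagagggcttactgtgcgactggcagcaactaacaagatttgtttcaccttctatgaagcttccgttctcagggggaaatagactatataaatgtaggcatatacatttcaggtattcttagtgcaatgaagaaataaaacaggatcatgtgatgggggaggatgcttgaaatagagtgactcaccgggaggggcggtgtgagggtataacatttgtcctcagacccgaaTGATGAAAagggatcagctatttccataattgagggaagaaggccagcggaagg
SLC1A5, chr19:46784765-46785064, minus strand: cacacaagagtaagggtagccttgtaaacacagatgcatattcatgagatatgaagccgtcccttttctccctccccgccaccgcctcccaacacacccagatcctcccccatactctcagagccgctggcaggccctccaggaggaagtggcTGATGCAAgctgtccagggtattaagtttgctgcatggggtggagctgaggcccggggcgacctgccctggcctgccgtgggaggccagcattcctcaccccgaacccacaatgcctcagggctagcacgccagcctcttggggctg
SLC6A9, chr1:44031413-44031712, minus strand: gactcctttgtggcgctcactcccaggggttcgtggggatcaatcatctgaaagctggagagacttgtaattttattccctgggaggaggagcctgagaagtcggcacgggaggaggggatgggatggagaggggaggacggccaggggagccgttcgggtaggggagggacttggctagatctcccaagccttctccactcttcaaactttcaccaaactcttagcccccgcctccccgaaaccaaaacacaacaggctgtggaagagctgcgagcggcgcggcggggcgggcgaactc
Counted from the annotated start of its own window, the match began at base −7 in SLC1A4, 37 in SLC3A2, 7 in SLC7A1, −4 in SLC38A1 and −97 in SLC1A5. SLC1A4, SLC3A2, SLC38A1 and SLC1A5 also had windows without this motif, and the window printed was the one farthest downstream. In SLC1A4, SLC3A2 and SLC1A5 the window farthest upstream held none of the 3 motifs. Which starts these cells used was not tested. A match is a description of the letters and was not tested as a binding site. Of the genes without this motif in the windows, SLC7A5 held the antioxidant response element, and SLC38A2 and SLC43A1 held none of the 3. SLC3A2, SLC7A1 and SLC1A5 held both the first motif and the antioxidant response element, SLC1A5 in separate windows.

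Library totals were 9367462 to 13917212 counts. The CARM1 knockout libraries stood apart from all others before any result on the transporters is read. Across genes, which are not independent replicates, log2 counts scaled to the library total correlated with r of 0.986 to 0.989 between replicates, 0.961 to 0.987 between control and XBP1 knockdown libraries, and 0.730 to 0.775 between the knockout and the other libraries. The line is labelled as ovarian cancer, yet the ovarian epithelial markers PAX8 and KRT7 had 0 to 2 and 0 to 13 counts in the control and knockdown libraries, against 465 to 840 and 3576 to 5166 in the knockout libraries, and MUC16 was at 0 in all 18. The list was not uniform: KRT18 and KRT8 were well expressed in control and knockdown cells, at 1435 to 5479 and 251 to 896 counts against 12965 to 18887 and 6208 to 9436 in knockout cells, while KRT19 had 5 to 44 counts in control, 0 to 4 in knockdown and 0 in all knockout libraries. The summed level of the 9 ovarian epithelial markers was 311 to 332 CPM (counts divided by the library total after TMM correction for the makeup of each library) in control cells with vehicle, 463 to 489 with tunicamycin, 131 to 215 in knockdown cells and 2252 to 2773 in knockout cells. Of the 8 markers of other cell types, 7 were in the table and summed to 5.46 to 19.6 in control and knockdown libraries and to 185 to 497 in knockout libraries, where the fibroblast gene COL1A1 had 2205 to 6247 counts. DCN, also a fibroblast gene, went the other way, with 5 to 20 counts in control, 1 to 11 in knockdown and 0 to 2 in knockout libraries, and CD3E was at 0 in all 18. The part of these differences in the results was not tested, and the loss of CARM1 and whatever else sets these 6 libraries apart cannot be told apart. CARM1 was at 162 ± 2.69 and 74.2 ± 3.11 CPM (SD, n = 3) in control and knockout cells with vehicle, and XBP1 at 149.8 ± 3.02 and 71.6 ± 2.35 in control and knockdown cells with tunicamycin.

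In control cells all 10 transporters rose with tunicamycin, by log2 fold changes from 0.67 to 5.02. SLC7A11, SLC6A9 and SLC3A2 rose most, and SLC38A2, SLC1A5 and SLC38A1 least. By edgeR's quasi-likelihood test at a false discovery rate of 5%, 22.0% of all genes tested were called higher and 19.9% lower. The median log2 fold change was 2.02 over the 10 genes and 0.00 over all genes tested. The 10 genes and the related lists described below were chosen with earlier results of these data known. Their counts and medians are therefore descriptions and not a test of the set. In each of the 10 genes the 3 libraries with tunicamycin lay above the 3 with vehicle, as groups did without overlap, in either direction, for 49.8% of all genes tested. In bulk RNA, fewer cells with a transcript and less of it per cell cannot be told apart.

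SLC7A11 (ENSG00000151012), on chromosome 4 of GRCh37 from 139085251 to 139163503, is the cystine importer on which glutathione synthesis depends. It had 8.74, 7.74 and 7.37 CPM in the control libraries with vehicle and 251, 261 and 252 with tunicamycin. Every library with tunicamycin was far above every library with vehicle. The log2 fold change was 5.02 (SE 0.0777, adjusted p = 1.33e-16 by quasi-likelihood F test in edgeR). SLC3A2 (ENSG00000168003), its heavy chain, on chromosome 11 from 62623476 to 62656352, had 89.0, 89.3 and 89.5 CPM with vehicle and 509, 467 and 527 with tunicamycin. The replicates with vehicle were nearly level, and the log2 fold change was 2.50 (SE 0.0595, adjusted p = 1.18e-14 from the same edgeR test). SLC7A5 (ENSG00000103257), the second light chain, on chromosome 16 from 87863629 to 87903113, had 113, 111 and 108 CPM with vehicle and 242, 317 and 288 with tunicamycin. Its libraries with tunicamycin spread more widely than those with vehicle, without overlap between the groups. The log2 fold change was 1.37 (SE 0.0801, adjusted p = 8.35e-10 from the same edgeR test). The pseudogenes SLC7A5P1 and SLC7A5P2 were at 0 counts in all libraries, so adding them to SLC7A5 left its values as they were.

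**Figure D1:**
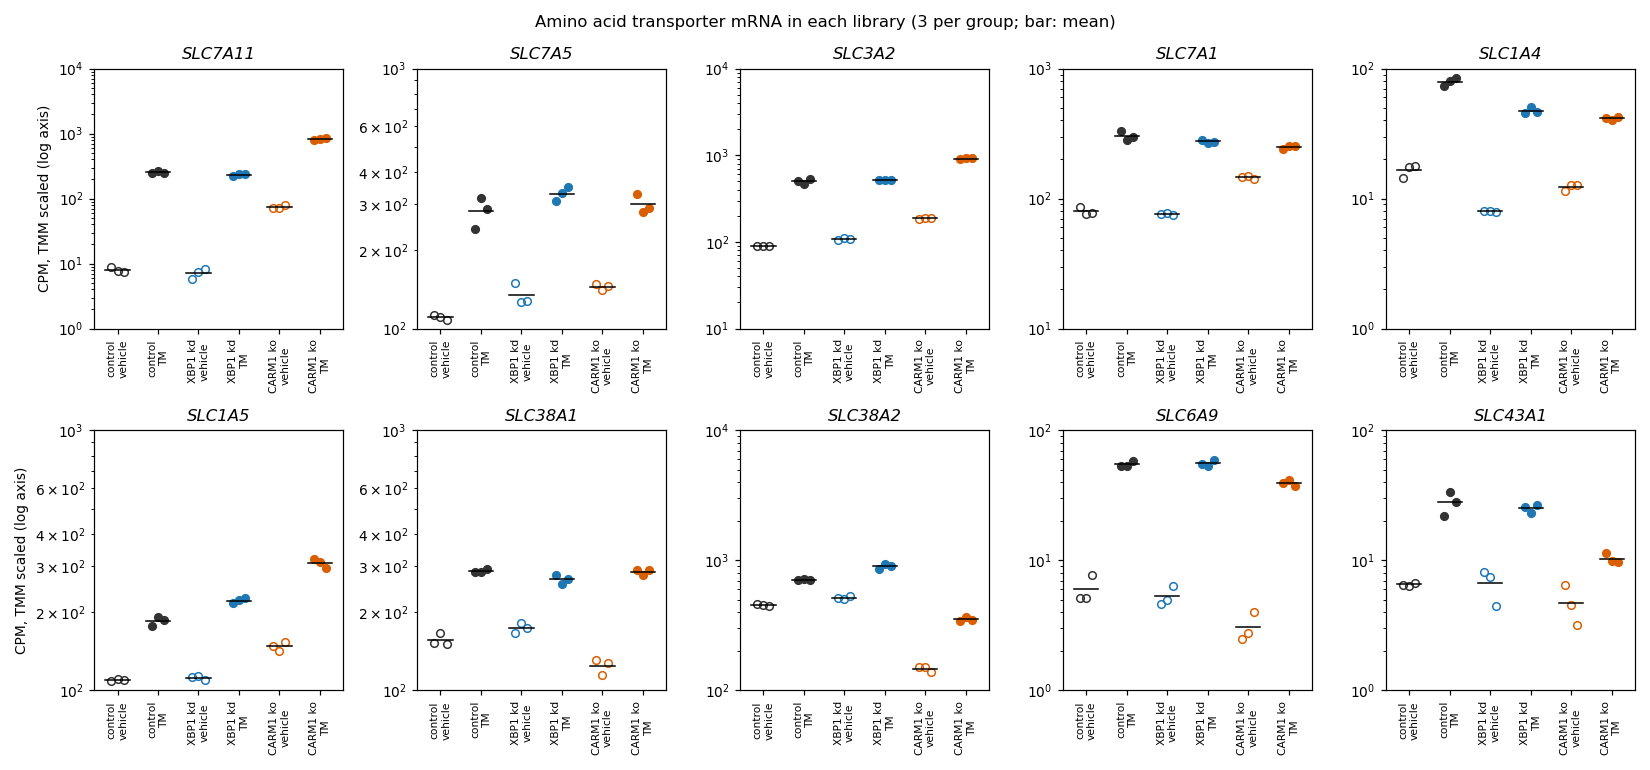
Level of each transporter in each of the 18 libraries, in CPM on a log axis, with open points for vehicle, filled points for tunicamycin (TM) and a bar for the mean of 3. All 10 genes lie higher with tunicamycin than with vehicle in control, XBP1 knockdown (kd) and CARM1 knockout (ko) cells, and SLC7A11 in knockout cells with vehicle, at 72.3 to 79.9 CPM, lies above its level of 7.37 to 8.74 in control cells.

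SLC7A1 (ENSG00000139514), the arginine and lysine carrier on chromosome 13 from 30083551 to 30169825, had 86.0, 75.9 and 78.1 CPM with vehicle and 329, 281 and 295 with tunicamycin. The log2 fold change was 1.93 (SE 0.0701, adjusted p = 2.19e-12 by quasi-likelihood F test in edgeR). SLC1A4 (ENSG00000115902), a carrier of alanine, serine and cysteine on chromosome 2 from 65215611 to 65250999, had 14.4, 17.6 and 17.8 CPM with vehicle and 73.0, 79.8 and 84.2 with tunicamycin. Neither gene had overlapping groups, and for SLC1A4 the log2 fold change was 2.26 (SE 0.0919, adjusted p = 9.26e-12 from the same edgeR test). SLC1A5 (ENSG00000105281), a glutamine exchanger on chromosome 19 from 47278140 to 47291851, had 108, 111 and 109.8 CPM with vehicle and 176, 191 and 187 with tunicamycin, a log2 fold change of 0.77 (SE 0.0562, adjusted p = 1.28e-08 from the same edgeR test).

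The sodium-coupled neutral carriers SLC38A1 (ENSG00000111371) and SLC38A2 (ENSG00000134294) lie side by side on chromosome 12, from 46576846 to 46663800 and from 46751971 to 46766556. SLC38A1 had 153, 166 and 151 CPM with vehicle and 285, 284 and 292 with tunicamycin. SLC38A2 had 459.9, 454 and 443 CPM with vehicle and 713, 715 and 713 with tunicamycin. Their log2 fold changes of 0.88 (SE 0.0551) and 0.67 (SE 0.0473) were, with that of SLC1A5, the smallest of the 10, but far larger than the spread between replicates (adjusted p = 1.82e-09 and 8.2e-09 by quasi-likelihood F test in edgeR).

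SLC6A9 (ENSG00000196517), the glycine transporter on chromosome 1 from 44457172 to 44497139, had 5.11, 5.16 and 7.70 CPM with vehicle and 53.3, 53.6 and 58.3 with tunicamycin. SLC43A1 (ENSG00000149150), on chromosome 11 from 57252007 to 57283253, had 6.50, 6.41 and 6.70 CPM with vehicle and 22.1, 33.7 and 28.0 with tunicamycin. Both were scarce with vehicle, at 66 to 115 and 84 to 100 counts in a library. The log2 fold changes were 3.20 (SE 0.126) for SLC6A9 and 2.11 (SE 0.147) for SLC43A1 (adjusted p = 6.21e-12 and 7.24e-09 by quasi-likelihood F test in edgeR). The annotation places CCDC24 over part of SLC6A9 and LINC02245 over part of SLC1A4, each on the opposite strand. In control cells they had 17 to 31 and 61 to 81 counts in a library, with or without tunicamycin. Whether counting used strand is not given in the sources used here, so that reads of these pairs may not have been told apart, and the levels of SLC6A9 and SLC1A4 with vehicle, at 32 to 115 and 107 to 266 counts over the 3 genotypes, are the least certain.

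Within XBP1 knockdown cells all 10 transporters rose with tunicamycin (19.2% of all genes tested were called higher), and the median log2 fold change was 1.87. Within CARM1 knockout cells all 10 rose as well (20.6% of all genes tested were called higher), with a median of 1.27. These 2 comparisons share no library with each other or with that in control cells. SLC7A11 had 5.87, 7.52 and 8.36 CPM in knockdown cells with vehicle and 225, 239 and 237 with tunicamycin. In knockout cells it had 72.5, 72.3 and 79.9 CPM with vehicle and 790.2, 812 and 842 with tunicamycin. The knockout libraries with vehicle therefore held several times the SLC7A11 of the other vehicle libraries, and those with tunicamycin the highest level of any group. The log2 fold change with tunicamycin was 4.99 (SE 0.0862) in knockdown and 3.49 (SE 0.0444) in knockout cells. SLC3A2 had 106, 111 and 107 CPM in knockdown cells with vehicle and 519.7, 514 and 514 with tunicamycin. SLC6A9 had 4.59, 4.97 and 6.39 CPM there with vehicle and 55.4, 52.9 and 59.6 with tunicamycin. Both genes were separated by treatment in every genotype, as were SLC7A1, at 74.9 to 77.3 and 269 to 284 CPM in knockdown cells, and SLC43A1, at 4.49 to 8.21 and 23.1 to 26.9. SLC38A1 had 166 to 181 CPM in knockdown cells with vehicle and 257 to 279 with tunicamycin, the smallest fold response among the 10 there. SLC7A5 had 148, 140.5 and 145 CPM in knockout cells with vehicle and 328, 282 and 291 with tunicamycin. Over the 10 genes it ran from 0.62 for SLC38A1 to 4.99 for SLC7A11 in knockdown cells and from 0.81 for SLC7A1 to 3.75 for SLC6A9 in knockout cells. The largest adjusted p among these 20 values was 2.6e-05, for SLC43A1 in knockout cells, by quasi-likelihood F test in edgeR.

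**Figure D2:**
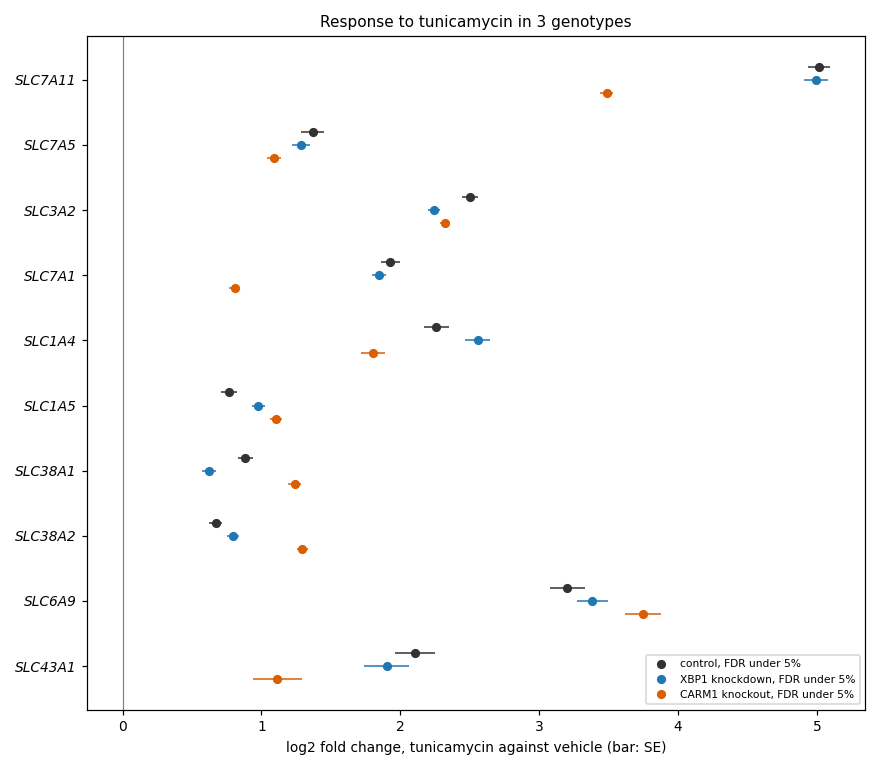
Log2 fold change of each transporter with tunicamycin against vehicle, with its standard error (SE), in the 3 genotypes, where every point passed an FDR of 5%. SLC7A11, SLC7A1 and SLC43A1 lie lower in knockout than in control cells (3.49 against 5.02, 0.81 against 1.93 and 1.11 against 2.11), and SLC38A1 and SLC38A2 lie higher (1.24 against 0.88 and 1.30 against 0.67).

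Whether the response differed between genotypes was tested as an interaction term. Between CARM1 knockout and control cells it differed for 9 of the 10 transporters, 3 with a larger and 6 with a smaller log2 response in knockout cells, while 10.5% and 12.4% of all genes tested were called in these directions. The difference was −1.55 (SE 0.0918, adjusted p = 2.48e-10 by quasi-likelihood F test in edgeR) for SLC7A11 and −1.14 (SE 0.084, adjusted p = 4.85e-09) for SLC7A1. It was −1.01 (SE 0.264, adjusted p = 0.00773 from the same edgeR test) for SLC43A1 and −0.48 (SE 0.129, adjusted p = 0.0104) for SLC1A4. In these 4 genes the fold response was smaller in knockout cells. It was larger for SLC38A2, by 0.61 (SE 0.0604, adjusted p = 3.1e-07 by quasi-likelihood F test in edgeR), SLC38A1, by 0.34 (SE 0.0736, adjusted p = 0.00197), and SLC1A5, by 0.32 (SE 0.0695, adjusted p = 0.00207). SLC7A5 and SLC3A2 passed only narrowly, with −0.30 (SE 0.106, adjusted p = 0.0492 by quasi-likelihood F test in edgeR) and −0.20 (SE 0.0641, adjusted p = 0.0272). When each of the 12 libraries was left out in turn, the call was lost in 10 of 12 fits for SLC7A5, with adjusted p up to 0.303, and in 8 of 12 for SLC3A2, with adjusted p up to 0.398 in edgeR. SLC1A4 lost its call without replicate 1 of control with vehicle or replicate 3 of control with tunicamycin, and SLC43A1 without replicate 1 of knockout with vehicle (adjusted p up to 0.0808 and 0.0755 in edgeR). SLC6A9, at 0.53 (SE 0.22, adjusted p = 0.0964 from the same edgeR test), did not pass, but was called with a larger response in 3 of the 12 fits with a library left out and under 2 of the 7 other settings, no filter and 10 counts in every library (adjusted p down to 0.0231). The 3 were those without replicate 1 or 2 of control or replicate 3 of knockout with vehicle (adjusted p down to 0.0316 in edgeR).

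The responses were also read as gains on the CPM scale. SLC7A11 gained 247 ± 5.95 CPM with tunicamycin in control cells (the root of the summed squares of the SDs of its 2 groups, n = 3 each, as for the gains that follow) and 740.0 ± 26.4 in knockout cells, although its fold response was smaller there. SLC3A2 gained 412 ± 30.5 CPM in control and 724 ± 13.2 in knockout cells. The cystine exchanger thus had the smaller fold and the larger gain in knockout cells. For its heavy chain the gain was larger there, but the smaller fold response was not a stable call. It was lost in 8 of 12 fits with a library left out and under 3 of 7 other settings. SLC38A2 showed the reverse pattern, with a gain of 261 ± 8.77 CPM in control and 206 ± 13.5 in knockout cells beside a larger fold response in the latter. SLC7A1 gained 222 ± 25.3 CPM in control and 103 ± 9.75 in knockout cells, and SLC43A1 21.4 ± 5.78 and 5.56 ± 1.86. For these genes, and for SLC1A4 with 62.4 ± 5.97 and 29.3 ± 1.47, fold and gain were both smaller in knockout cells. SLC1A5 had the larger value on both scales there, with gains of 75.3 ± 7.73 and 162 ± 13.9 CPM, and so did SLC38A1, with 130.1 ± 9.41 and 162 ± 11.4. The gains are descriptions with no test.

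**Figure D3:**
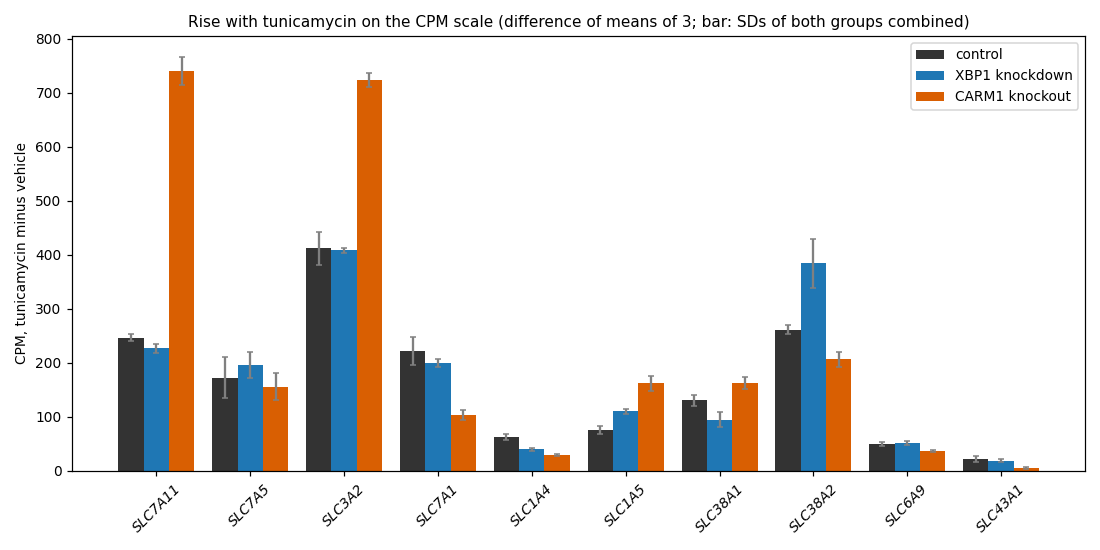
Mean CPM with tunicamycin minus mean CPM with vehicle for each transporter in 3 genotypes, with the root of the summed squares of the SDs of the 2 groups as error bar (n = 3 and 3). SLC7A11 and SLC3A2 gained 740.0 and 724 CPM in knockout cells against 247 and 412 in control cells, and SLC7A1 and SLC43A1 gained less in knockout than in control cells.

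Between XBP1 knockdown and control cells the response passed the test for none of the 10 transporters in edgeR's quasi-likelihood test, where 0.364% of all genes tested were called with a larger and 1.67% with a smaller response. At an unadjusted p below 0.05 there were 5 of the 10, 3 with a larger and 2 with a smaller response, beside 5.24% and 8.32% of all genes tested. DESeq2 called 2, both with a smaller response in knockdown cells, where it called 0.601% of all genes tested with a larger and 2.08% with a smaller response. These 2 were SLC3A2, with a difference of −0.25 (SE 0.0683, adjusted p = 0.0667 by quasi-likelihood F test in edgeR), and SLC38A1, with −0.26 (SE 0.0725, adjusted p = 0.0759). For SLC7A11 the difference was −0.01 (SE 0.131), and its fold response was 32.0 in control and 32.2 in knockdown cells as the ratio of mean CPM. SLC6A9, at 0.19 (SE 0.19), and SLC43A1, at −0.20 (SE 0.246), had wider errors, so that differences of this size were not detectable with these libraries. XBP1 mRNA was lowered by the knockdown but not lost. It had 24.1 to 26.5 CPM in knockdown cells with vehicle and 69.0 to 73.7 with tunicamycin. Control cells had 43.2 to 51.1 and 148 to 153. XBP1 mRNA thus still rose in knockdown cells. The comparison describes a response with less XBP1 and not one without it.

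CARM1 knockout cells differed from control cells with vehicle in 9 of the 10 transporters, 5 of them higher and 4 lower, in a comparison in which 37.5% of all genes tested were called higher and 36.9% lower. Groups did not overlap for 9 of the 10, against 75.9% of all genes tested. The transporters that were higher were the cystine exchanger SLC7A11, its heavy chain SLC3A2, the other light chain SLC7A5, the arginine carrier SLC7A1 and the glutamine exchanger SLC1A5. Those that were lower were SLC1A4, SLC38A1, SLC38A2 and SLC6A9. The median over the 10 was −0.02. SLC7A11 differed by a log2 fold change of 3.19 (SE 0.0905, adjusted p = 4.66e-14 by quasi-likelihood F test in edgeR). SLC3A2 had 185, 188 and 188 CPM in knockout cells with vehicle, above the 89.0 to 89.5 of control cells, a log2 fold change of 1.02 (SE 0.047, adjusted p = 1.73e-11 from the same edgeR test). SLC7A1 had 145, 150.4 and 142 CPM, above control cells by 0.82 (SE 0.0579). SLC7A5 and SLC1A5 were higher by only 0.34 (SE 0.0493) and 0.39 (SE 0.0506). In the opposite direction, SLC38A2 had 152, 150.2 and 139 CPM in knockout cells with vehicle against 443 to 459.9 in control cells, a log2 fold change of −1.66 (SE 0.0474, adjusted p = 5.07e-14 by quasi-likelihood F test in edgeR). Its neighbour SLC38A1, at 131, 115 and 128 CPM, was lower by less (−0.38, SE 0.0594). SLC6A9 was at 2.49, 2.77 and 4.01 CPM, a log2 fold change of −1.04 (SE 0.236, adjusted p = 0.000964 from the same edgeR test), and SLC1A4 was at 11.3, 12.7 and 12.8 CPM (−0.49, SE 0.118). In knockout cells CCDC24, which overlaps SLC6A9, had 30 to 79 counts in a library with vehicle beside 32 to 35 of SLC6A9. SLC43A1 did not pass (−0.48, SE 0.209, adjusted p = 0.0502 in edgeR), and its knockout libraries at 6.45, 4.53 and 3.21 CPM overlapped those of control cells.

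With tunicamycin, knockout cells differed from control cells in 8 of the 10 transporters, 3 higher and 5 lower, where 38.4% of all genes tested were called higher and 36.8% lower. Groups did not overlap for 8 of the 10, against 77.1% of all genes tested. SLC7A11 was higher by a log2 fold change of 1.69 (SE 0.0418, adjusted p = 2.42e-14 by quasi-likelihood F test in edgeR), and SLC3A2 by 0.87 (SE 0.0454), with 896, 919 and 917 CPM in knockout cells. SLC1A5 was higher by 0.75 (SE 0.048), with 321, 312 and 297 CPM. SLC7A1 stood the other way from its difference with vehicle, at 239, 255 and 254 CPM in knockout cells with tunicamycin against 281 to 329 in control cells, a log2 fold change of −0.27 (SE 0.0554, adjusted p = 0.000451 from the same edgeR test). SLC38A2 was lower by 1.01 on the log2 scale, with 345, 367 and 349 CPM, so that its level in knockout cells with tunicamycin lay below that of control cells with vehicle. SLC43A1 had 11.3, 9.84 and 9.69 CPM and a log2 fold change of −1.44 (SE 0.142, adjusted p = 2.66e-07 by quasi-likelihood F test in edgeR). SLC1A4, at 41.7, 40.3 and 42.8 CPM, differed by −0.92 (SE 0.0669), and SLC6A9, at 39.4, 41.3 and 37.1 CPM, by −0.48 (SE 0.0688). SLC7A5 and SLC38A1 did not pass, with 0.09 (SE 0.0807, adjusted p = 0.306 in edgeR) and 0.00 (SE 0.0413, adjusted p = 0.936). With library totals in place of TMM factors SLC38A1 was called lower by 0.16 on the log2 scale (adjusted p = 0.00266), a scaling under which the median of all genes was −0.18 in this comparison and −0.20 in that with vehicle, against −0.02 and −0.03 with TMM.

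**Figure D4:**
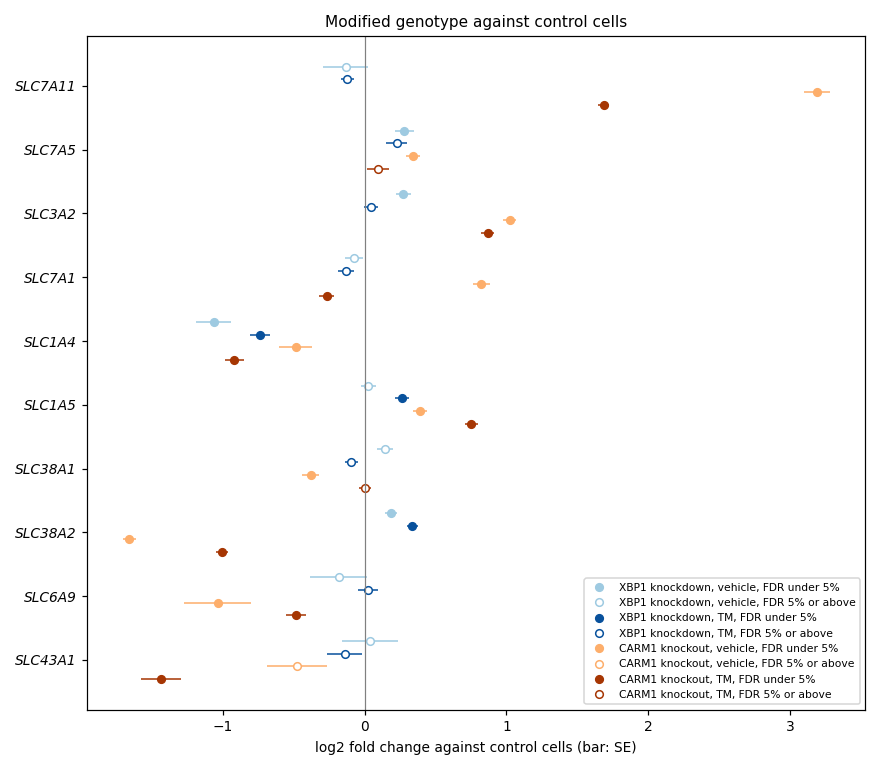
Log2 fold change of each transporter in XBP1 knockdown or CARM1 knockout cells against control cells, with vehicle or with tunicamycin (TM), with its SE and with open points at an FDR of 5% or above. The knockout values run from −1.66 for SLC38A2 to 3.19 for SLC7A11, while the knockdown values other than those of SLC1A4 lie between −0.18 and 0.34.

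XBP1 knockdown cells differed from control cells with vehicle in 4 transporters, 3 higher and 1 lower, where 2.07% of all genes tested were called higher and 3.03% lower. Groups did not overlap for 4 of the 10, against 23.6% of all genes tested. The lower gene was SLC1A4, with 8.06, 8.02 and 7.86 CPM in knockdown cells against 14.4 to 17.8 in control cells, a log2 fold change of −1.07 (SE 0.122, adjusted p = 0.000104 by quasi-likelihood F test in edgeR). It was the largest difference of any transporter between these groups. The higher genes were SLC7A5, by 0.28 (SE 0.066, adjusted p = 0.0238 in edgeR), SLC3A2, by 0.27 (SE 0.0532, adjusted p = 0.00768), and SLC38A2, by 0.18 (SE 0.0443, adjusted p = 0.025). Leaving out 1 of the 6 libraries ended the call in 3 fits for SLC7A5, 4 for SLC38A2 and 1 for SLC3A2, with adjusted p up to 0.0888, 0.110 and 0.0579 in edgeR. SLC7A11 did not pass (−0.14, SE 0.157, adjusted p = 0.71 in edgeR).

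With tunicamycin, knockdown cells differed in 3 transporters, 2 higher and 1 lower, where 6.99% of all genes tested were called higher and 8.55% lower. Groups did not overlap for 5 of the 10, against 31.5% of all genes tested. SLC1A4 was again lower, with 45.4, 50.2 and 46.5 CPM against 73.0 to 84.2 in control cells, a log2 fold change of −0.74 (SE 0.0704, adjusted p = 3.27e-06 by quasi-likelihood F test in edgeR). It was called lower than in control cells in both modified genotypes and with both treatments, in 4 comparisons that share their control libraries within a treatment. LINC02245, on the opposite strand of SLC1A4, had 51 to 95 counts in a knockdown library and 61 to 81 in a control library, beside 107 to 113 and 186 to 266 counts of SLC1A4 with vehicle. SLC38A2 was higher in knockdown cells by 0.34 (SE 0.0417, adjusted p = 4.56e-05 in edgeR), with 854, 939 and 908 CPM against 713 to 715, and SLC1A5 by 0.26 (SE 0.0494, adjusted p = 0.00177), with 216, 222 and 226 CPM against 176 to 191. SLC7A5 missed the threshold (0.23, SE 0.0763, adjusted p = 0.0582 in edgeR) with 309, 332 and 349 CPM. It was called higher under 5 of 8 other settings, which were DESeq2, no filter, all libraries in one fit, the replicate block and library totals (adjusted p = 0.000205 to 0.0493), and in 2 of 6 fits with a library left out, those without replicate 2 of control or replicate 1 of knockdown (adjusted p down to 0.00618 in edgeR).

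Ordered by mean CPM, the 6 groups of SLC7A11 ran from knockout with tunicamycin through control and knockdown with tunicamycin and knockout with vehicle to control and knockdown with vehicle, and only the last pair of neighbours overlapped. For SLC3A2 knockout cells were first with each treatment, and the overlap was between knockdown and control cells with tunicamycin. SLC1A4 and SLC38A2 had 6 groups with no overlap between neighbours, led by control and by knockdown cells with tunicamycin. For SLC38A2 knockout cells held the last 2 places, so that only the knockout outranked treatment in its order. Control and knockdown cells with tunicamycin both lay above control and knockdown cells with vehicle. In SLC7A5 and SLC38A1 the 3 genotypes with tunicamycin overlapped with their neighbours and stood above all vehicle groups. In SLC43A1 the 3 vehicle groups overlapped with their neighbours, as did control and knockdown cells with tunicamycin, and knockout cells with tunicamycin lay between the 2 sets. SLC6A9 and SLC7A1 each had overlap between control and knockdown cells with both treatments. SLC1A5 was led by knockout cells with tunicamycin, and the overlap was between knockdown and control cells with vehicle.

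The patterns most like each transporter were sought among 9523 genes whose log2 CPM averaged 3 or more, by the root mean square difference of the 6 group means on the log2 scale after centring each gene. This is a description over 6 means and says nothing of shared control. The distance was not scaled to the span of a gene's 6 means, so distances of different transporters cannot be compared directly. The span was 6.80 for SLC7A11, but 1.58 for SLC7A5 and 1.21 for SLC38A1. For SLC7A11 the nearest were STC2 at 0.738, TRIB3 at 0.858 and HERPUD1 at 0.903, where the median over all genes compared was 2.58. For SLC3A2 they were PCK2 at 0.205, CRELD1 at 0.242 and CEBPB at 0.264. For SLC7A5 and SLC38A1 the nearest were ABITRAM at 0.0544 and MTHFD1L at 0.0547, and each had a tRNA synthetase among its 3 nearest, MARS1 at 0.0967 and TARS1 at 0.106. SLC6A9 was nearest to the ER proteins DNAJB9 at 0.257, HYOU1 at 0.280 and SDF2L1 at 0.325. SLC1A4 was nearest to NUCB2 at 0.283, EIF2AK3, which encodes PERK, at 0.310 and TUBE1 at 0.322. The nearest genes to SLC7A1 were JDP2, WDR25 and NCOA7, at 0.120 to 0.124, to SLC1A5 SNHG8, CANX and NPIPA1, at 0.0806 to 0.102, to SLC38A2 ATF7IP2, ZNF419 and HK2, at 0.109 to 0.168, and to SLC43A1 SLC35B1, TMEM50B and ZBED3, at 0.163 to 0.178. Among the transporters themselves SLC7A5 was closest to SLC1A5 (0.275) and to SLC38A1 (0.293).

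Other amino acid transporters of the plasma membrane were called higher in a share near that of all genes tested. Of 27 listed, 15 were tested in control cells, of which 3 rose and 2 fell with tunicamycin, beside 22.0% and 19.9% of all genes tested, and the median log2 fold change was 0.12. One of the 3 was SLC7A3, another carrier of arginine and lysine, with 26 to 47 counts in a library with vehicle and 619 to 631 with tunicamycin. Its log2 fold change was 4.39 (SE 0.138, adjusted p = 3.97e-13 by quasi-likelihood F test in edgeR) in control and 4.66 in knockdown cells, and in knockout cells it had 0 counts with vehicle and 0 to 1 with tunicamycin. The scarce SLC7A8 rose from 2 counts in a library with vehicle to 13 to 20 with tunicamycin, and SLC43A2, a relative of SLC43A1, rose by 0.29 and differed in sign in knockout cells (−0.39). SLC6A6, the taurine carrier, fell from 28 to 39 counts in a library to 3 to 8 (log2 fold change −2.66), and SLC16A10 fell by 0.62. Of 15 lysosomal and mitochondrial carriers, all tested, 3 rose and 6 fell, with a median of −0.06. They ranged from SLC25A29 at 0.72, SLC38A9 at 0.53 and SLC25A38 at 0.29 down to SLC25A22 at −0.73, SLC36A1 at −0.79 and SLC25A15 at −0.80.

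**Figure D5:**
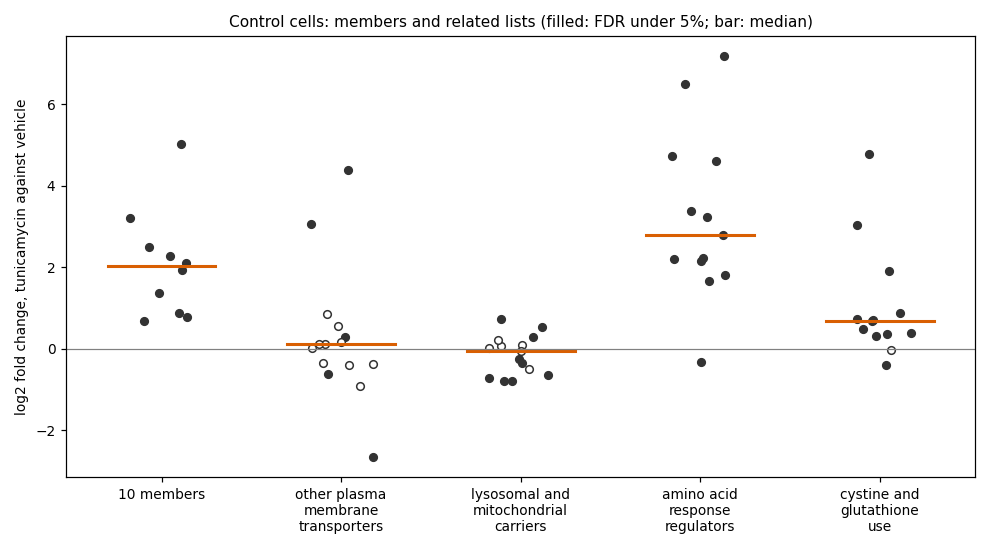
Log2 fold change with tunicamycin against vehicle in control cells for the 10 transporters and 4 related lists, with filled points for genes called at an FDR of 5%, open points for the others and a bar for the median. The medians were 2.02 for the 10 transporters, 0.12 and −0.06 for the other carriers, 2.79 for the regulators and 0.68 for cystine and glutathione use.

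The regulators of the amino acid response were read beside the transporters. Of 13, all tested, 12 rose and 1 fell with tunicamycin in control cells, for a median log2 fold change of 2.79, and the counts were 12 and 1 in knockdown and 11 and 1 in knockout cells. Of all genes tested, 22.0% rose and 19.9% fell in control, 19.2% and 19.0% in knockdown and 20.6% and 18.8% in knockout cells. ATF4 mRNA had 418 ± 9.86 CPM (SD, n = 3) in control cells with vehicle and 1454 ± 59.6 with tunicamycin. Its log2 fold change was 1.81 (SE 0.0509) in control, 1.74 in knockdown and 1.31 in knockout cells, and the response was smaller in knockout than in control cells (−0.52, SE 0.0561, adjusted p = 9.97e-07 by quasi-likelihood F test in edgeR). DDIT3, a factor downstream of ATF4, rose by 4.61, 4.48 and 5.02 in control, knockdown and knockout cells, and its response in knockout cells was larger (0.39, SE 0.117, adjusted p = 0.0187 in edgeR). TRIB3 rose by 4.73, 5.21 and 4.88. ATF3 rose by 6.50 in control and 2.33 in knockout cells, a difference of −4.19 (SE 0.266). NUPR1 had 0 to 3 counts in a control library with vehicle and 166 to 214 with tunicamycin, and 0 to 1 and 5 to 11 in knockout libraries. EIF2AK4, which encodes GCN2, was the regulator that fell (−0.34). In the interaction with CARM1 knockout, 2 of the 13 were called with a larger and 5 with a smaller response in knockout cells, beside 10.5% and 12.4% of all genes tested.

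Of 13 genes listed for cystine and glutathione use and its regulation, 11 rose and 1 fell in control cells, with a median of 0.68. Of all genes tested, 22.0% rose and 19.9% fell there. CHAC1, an enzyme that degrades glutathione, rose by 4.78 in control, 4.94 in knockdown and 3.96 in knockout cells. CTH, which makes cysteine, rose by 3.03, 3.10 and 3.47. NFE2L2 mRNA rose by 0.73, 0.82 and 0.80. HMOX1, a target of NFE2L2, rose by 1.91 in control cells and fell by 0.48 in knockout cells, a difference of −2.42 (SE 0.177, adjusted p = 4.55e-09 by quasi-likelihood F test in edgeR). In knockout cells TXNRD1 and GCLC lay higher with tunicamycin than with vehicle, while NQO1 and GCLM did not. TXNRD1 had 147 to 162 CPM with vehicle and 251 to 258 with tunicamycin, and GCLC 24.2 to 27.7 and 42.1 to 43.7. NQO1 had 238 to 252 and 241.5 to 243, and GCLM 139 to 144 and 126 to 139. GSR, glutathione reductase, was the gene that fell in control cells (−0.40). In knockout cells 8 of the 13 rose and 2 fell, beside 20.6% and 18.8% of all genes tested. Against control cells with vehicle 8 were higher and 4 lower, beside 37.5% and 36.9% of all genes tested.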

How the data were processed

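Total RNA of 18 A1847 libraries, 3 in each of 6 groups, was sequenced from the 3′ ends of mRNA as 75 nt single reads. After alignment to hg19 with bowtie2, the authors estimated reads for each Ensembl gene with RSEM and deposited these expected counts as unnormalized whole numbers. The labels' processing notes give RSEM 1.2.3, and the study's methods name another release. The Ensembl release, strand setting and any filter are not given in the sources used here. Sequencing at the 3′ end counts transcripts with little dependence on length, and cannot show isoforms or splicing of XBP1. The series' CUT&RUN data were not analysed here.

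Groups were taken from the labels, and 0 columns were left unmapped. Symbols were found for 55501 of 57736 genes, and positions are those of GRCh37. In R 4.3.3 with edgeR 4.0.16 and limma 3.58.1, genes passing filterByExpr with a minimum count of 10 over the 18 libraries (17317) were tested with TMM normalization and quasi-likelihood F tests on the compared groups, over 9 comparisons. Benjamini-Hochberg adjustment ran over the whole table, with a threshold of 0.05. The SE was taken as the absolute log2 fold change over the root of its F value. Between replicates, chi-square per degree of freedom was 1.84 to 6.89 over genes with at least 20 counts in the pair, so that no libraries were taken as copies and precision came from replicates. With 3 libraries against 3, an exact permutation test cannot go below a p of 0.1, so none was run.

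The 10 transporters and the related lists were chosen with earlier results of these data known. In each of 4 related lists, up to 3 called genes with the highest and 3 with the lowest log2 fold change with tunicamycin in control cells were named, and ATF4, DDIT3 and NFE2L2 in any case. Genes with at most 3 counts in every library of a group are given as counts. Alternatives were DESeq2 1.42.0 and its size factors, other filters, a single fit of the 18 libraries, the replicate number as a block, stricter thresholds (FDR of 1%, or a fold of at least 1.5), counts of copies added, each library left out in turn and, chosen after seeing the data, library totals without TMM factors. Scripts were tested on simulated data.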

Additional observations from a re-analysis of the deposited data

Results flagged for a closer look

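For 9 of the 10 transporters the log2 response to tunicamycin differed between CARM1 knockout and control cells by edgeR's interaction term. It was larger in knockout cells for 3 and smaller for 6, beside 10.5% and 12.4% of all genes tested. The difference, knockout minus control, was −1.55 for SLC7A11, −1.14 for SLC7A1, −1.01 for SLC43A1, −0.48 for SLC1A4, −0.30 for SLC7A5 and −0.20 for SLC3A2, and 0.61 for SLC38A2, 0.34 for SLC38A1 and 0.32 for SLC1A5. Those of SLC7A11, SLC7A1, SLC1A5, SLC38A1 and SLC38A2 kept their call with each of 12 libraries left out and under the 7 other settings at the same threshold. The call was lost in 10 of 12 fits with a library left out for SLC7A5 and in 8 of 12 for SLC3A2. It was lost in 2 for SLC1A4 and 1 for SLC43A1. The knockout libraries stood apart from all others over the whole transcriptome, and the part of this in the differences was not tested.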

How the results depend on the processing

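The 10 transporters were called higher with tunicamycin in each of the 3 genotypes under all settings tried at an FDR of 5%, with each library left out. Of 1540 transporter values under alternatives, 1435 kept direction and side of the threshold, 58 lost the call, 22 gained it and 25 changed sign. Asking for a fold of at least 1.5 left 3 genes higher and 2 lower in knockout cells with vehicle, 3 lower with tunicamycin, 0 higher in knockdown cells with either treatment, and 1 larger and 3 smaller responses in the knockout. Of all 17317 genes tested, this rule left 4988 higher and 4678 lower in knockout cells with vehicle and 4593 lower with tunicamycin. It left 79 higher in knockdown cells with vehicle, 212 with tunicamycin, and 882 larger and 1059 smaller responses in the knockout. An FDR of 1% left 1 gene higher in knockdown cells with vehicle and 3 smaller responses in the knockout, beside 125 and 1419 of the 17317 genes tested. For smaller responses in the knockdown, DESeq2 called 2 and the fit of all libraries 1, beside 361 and 339 of the 17317 genes tested. With each library left out, 1 to 3 genes were higher in knockdown cells with vehicle (1 without replicates 1 or 2 of control with vehicle or replicate 2 of knockdown with vehicle) and 1 to 2 lower with tunicamycin (2 without replicate 2 of control with tunicamycin). Smaller responses numbered 3 to 5 in the knockout (3 without replicate 1 of control with vehicle or replicate 3 of control with tunicamycin) and 0 to 1 in the knockdown (1 without replicate 2 of control with tunicamycin). Over the 17317 genes tested, 146 to 580 were higher in knockdown cells with vehicle and 906 to 1416 lower with tunicamycin in these fits. Smaller responses numbered 1467 to 1978 in the knockout and 208 to 357 in the knockdown. The causes were not tested. Sign changes were in values that were not called in the main fit. The value of SLC38A1 with library totals was called after its change of sign (adjusted p = 0.00266 by quasi-likelihood F test in edgeR). It is counted among the 25 sign changes and not among the 22 that gained a call. In knockout against control cells with tunicamycin, SLC38A1 was at −0.0025 with all libraries in one fit, −0.16 with library totals and −0.0098 to 0.026 with a library left out, and SLC7A5 at −0.0709 with library totals. The knockdown interaction of SLC7A11 was 0.0211 without a filter, 0.0198 with library totals and −0.14 to 0.10 with a library left out. Other signs changed with a library left out in knockdown against control with vehicle (SLC6A9 −0.33 to 0.0476, SLC43A1 −0.13 to 0.26), with tunicamycin (SLC6A9 −0.022 to 0.069, SLC3A2 −0.0059 to 0.081, SLC43A1 −0.29 to 0.0095) and in the knockdown interaction (SLC6A9 −0.0453 to 0.34, SLC7A1 −0.13 to 0.0089, SLC7A5 −0.16 to 0.016). No pairing of libraries by replicate number was seen: deviations of same-numbered libraries correlated at −0.0513 to 0.0451 (45 pairs) and of others at −0.0835 to 0.0945 (90 pairs). Such correlations over all genes cannot exclude a pairing that is weak beside the noise of counts. With the replicate number as a block the 10 transporters were again called in each genotype with tunicamycin, SLC43A1 became lower in knockout cells with vehicle (−0.52), SLC7A5 higher in knockdown cells with tunicamycin, and the knockout interaction of SLC7A5 lost its call. Low counts of SLC6A9 and SLC43A1 limit the precision of their genotype differences.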
